A study of Mus musculus with 3 samples.

Results

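Vascular smooth muscle cells, the contractile cells in the walls of arteries and larger veins, were examined in dissociated mouse hearts. They were chosen by a rule on unique molecular identifiers (UMIs, 1 for each captured transcript). A cell needed a UMI of at least 3 of 8 genes (Myh11, Lmod1, Tagln, Acta2, Kcnma1, Dgkb, Slc38a11 and Cnn1) and at least 2 UMIs over Myh11 and Lmod1. It could hold at most 1 UMI over Pdgfra, Csf1r, Muc16, Pecam1 and Cdh5, which mark fibroblasts, macrophages, mesothelium and endothelium. The rule found 312 cells among 38646 barcodes. The levels of these 13 genes in the cells are therefore a description of the choice and not a result.

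The study sampled all cells of the heart in male C57/B6J mice and compared wild type (WT) with a pair of point mutation models of hypertrophic cardiomyopathy. Myh6-R404Q mice carry a change in the alpha myosin heavy chain, the motor protein of cardiomyocytes. Prkag2-p.R299Q mice carry a change in the gamma 2 regulatory subunit of AMPK, the kinase that senses cellular energy through AMP. Each genotype had 1 library, with 18033 barcodes for WT, 12662 for Myh6-R404Q and 7951 for Prkag2-p.R299Q. Neither the age of the mice nor how many hearts went into a library is stated in the labels. With no replicates, differences between genotypes are described and not tested. All intervals are at 95% and cover counting error only.

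Smooth muscle cells set the tone of blood vessels: calcium entry and release activate myosin light chain kinase, and smooth muscle myosin (Myh11) then pulls on alpha actin (Acta2). Nitric oxide and cyclic GMP signalling relax them, and endothelin, noradrenaline and muscarinic or prostanoid agonists act through receptors on their surface. They share the mural lineage with pericytes, which sit on capillaries and carry Pdgfrb, Rgs5 and the ATP-sensitive potassium channel of Kcnj8 and Abcc9. The contractile genes are known targets of serum response factor with its partner myocardin (Myocd), which bind the CArG box, a stretch of 6 A or T bases between CC and GG.

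The promoter of Acta2 is shown because the gene belongs to the rule and its CArG boxes can be read in the letters, and that of Myl9, the regulatory light chain of smooth muscle myosin, because it holds a box with no G or C inside; Myl9 was added after its values had been seen. Both are the 250 bases before the start in the RefSeq promoter table of GRCm38.p6, the build to which the counts refer, and run 5′ to 3′ along the gene. Acta2 is read from chr19:34255374-34255623 on the minus strand and Myl9 from chr2:156775214-156775463 on the plus strand. Capitals mark CArG boxes with at most 1 G or C among the 6 inner bases.
Acta2: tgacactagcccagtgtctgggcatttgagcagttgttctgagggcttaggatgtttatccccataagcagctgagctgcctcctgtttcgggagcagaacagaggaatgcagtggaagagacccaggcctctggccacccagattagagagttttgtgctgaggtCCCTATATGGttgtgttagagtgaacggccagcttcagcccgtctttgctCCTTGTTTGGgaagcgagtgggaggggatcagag
Myl9: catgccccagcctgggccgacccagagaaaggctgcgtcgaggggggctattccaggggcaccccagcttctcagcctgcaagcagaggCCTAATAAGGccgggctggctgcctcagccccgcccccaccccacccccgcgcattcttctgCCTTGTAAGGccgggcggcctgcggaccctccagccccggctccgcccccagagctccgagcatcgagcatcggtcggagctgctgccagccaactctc
The Acta2 boxes, at bases 167 to 176 and 217 to 226, each hold 1 G or C inside. The Myl9 box at bases 90 to 99 holds none and that at bases 152 to 161 holds 1. The pattern of the box is the same on both strands. Over the 300-base windows of the table, which run to 50 bases after the start, 1.63% of 32851 promoters held a box with no inner G or C and 9.98% held a box with at most 1. Of the 8 genes of the rule, 6 were in the table and 1 of them (Acta2) held a box; Myh11 and Tagln were not in it. Of 40 contractile genes in the table, 8 held a box with no inner G or C and 11 a box with at most 1. Counted as promoters, the unit of the percentages above, these were 9 and 12 of 53. A match of letters is a description and not a bound site. Myl9 had a UMI in 76 of the WT smooth muscle cells, in 22 in the Myh6-R404Q library and in 9 in the Prkag2-p.R299Q library.

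The genes of the rule are also the defining markers of the label, and all 8 were detected in each library. Levels are given as counts per 1000000 UMIs of the cells summed (CPM), always with WT first, Myh6-R404Q next and Prkag2-p.R299Q last. Myl9 stood at 170, 182 and 166 CPM. Myh11 (chr16:14194535-14291372, minus strand) stood at 3625, 3547 and 2637 CPM, and had a UMI in 226 of 232, 57 of 59 and 21 of 21 cells. In WT a Myh11 UMI was seen in 97.4% of the smooth muscle cells (median 1836.5 UMIs per cell) and in 1.56% of fibroblast-like cells (median 1907); both classes were chosen by their UMIs, so the pair of shares does not measure how much free RNA the libraries held. Acta2 (chr19:34241090-34255590) stood at 1352, 1148 and 829 CPM and Dgkb, a diacylglycerol kinase, at 2121, 2211 and 1899 CPM. Lmod1, which helps actin filaments form, stood at 621, 790 and 678 CPM. Tagln, an actin-binding protein of smooth muscle, stood at 485, 522 and 286 CPM. Kcnma1, the large-conductance calcium-activated potassium channel, stood at 613, 474 and 362 CPM, and Slc38a11, an amino acid transporter, at 468, 577 and 497 CPM. Cnn1, calponin, was the sparsest of the 8 genes, at 69.0, 48.6 and 45.2 CPM and with a UMI in 12.1%, 13.6% and 14.3% of the cells.

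Cells just inside and just outside the rule were set side by side over all libraries. The 20 cells with exactly 2 UMIs over Myh11 and Lmod1 held 2824 CPM of Kcnab1, a potassium channel subunit that the rule did not use, and the 26 cells left out with 1 such UMI held 441 CPM. The 36 cells with exactly 3 of the 8 genes held 2230 CPM of Kcnab1 and the 29 left out with 2 held 645 CPM. For the excluded genes, the 77 cells inside with 1 UMI held 1887 CPM and the 29 outside with 2 held 1417 CPM. Single libraries did not always keep this order. In Prkag2-p.R299Q the 3 cells with exactly 3 of the 8 genes held 76.7 CPM of Kcnab1 and the 10 cells left out with 2 held 144 CPM, so these 3 of the 21 cells carry little of this marker. They gave 13040 of the 66353 UMIs of the 21 cells. The cardiomyocyte gene Myh6 stood at 14034 CPM in them, Itga8 at 76.7 CPM and Flna at 153 CPM. Their part in the Prkag2-p.R299Q levels below was not tested. In Myh6-R404Q the same edge rested on 1 cell inside (1929 CPM) and 2 outside (3615 CPM). In WT the cells with 1 and with 2 UMIs of the excluded genes held close levels, 1675 and 1691 CPM.

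Smooth muscle cells were a smaller share of the barcodes in both mutant libraries. They made up 232 of 18033 barcodes in WT (1.29%, exact binomial interval 1.13 to 1.46), 59 of 12662 in Myh6-R404Q (0.466%, 0.355 to 0.601) and 21 of 7951 in Prkag2-p.R299Q (0.264%, 0.164 to 0.403). The WT interval did not overlap the others, and those of the mutants overlapped. The Myh6-R404Q share was 0.362 of the WT share (0.272 to 0.482), and the Prkag2-p.R299Q share was 0.205 of it (0.131 to 0.321). Both ratios use the same WT library. The Prkag2-p.R299Q share was 0.567 of the Myh6-R404Q share (0.345 to 0.932), an interval that reached 1.15 when cells with any UMI of the excluded genes were left out.

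Depth went the other way: the median over all barcodes was 1559, 2043 and 2537 UMIs. With each barcode thinned to 1000 UMIs and shallower ones left out, 13793, 11068 and 7101 barcodes remained and the shares were 1.27%, 0.452% and 0.183%. Against the pericyte-like cells of the same library the smooth muscle cells were also fewer. They made up 26.2% of the 2 classes summed in WT (232 beside 652 pericyte-like cells), 12.1% in Myh6-R404Q (59 beside 427) and 6.19% in Prkag2-p.R299Q (21 beside 318). Whether digestion released vessel walls equally for the 3 libraries was not tested.

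**Figure D1:**
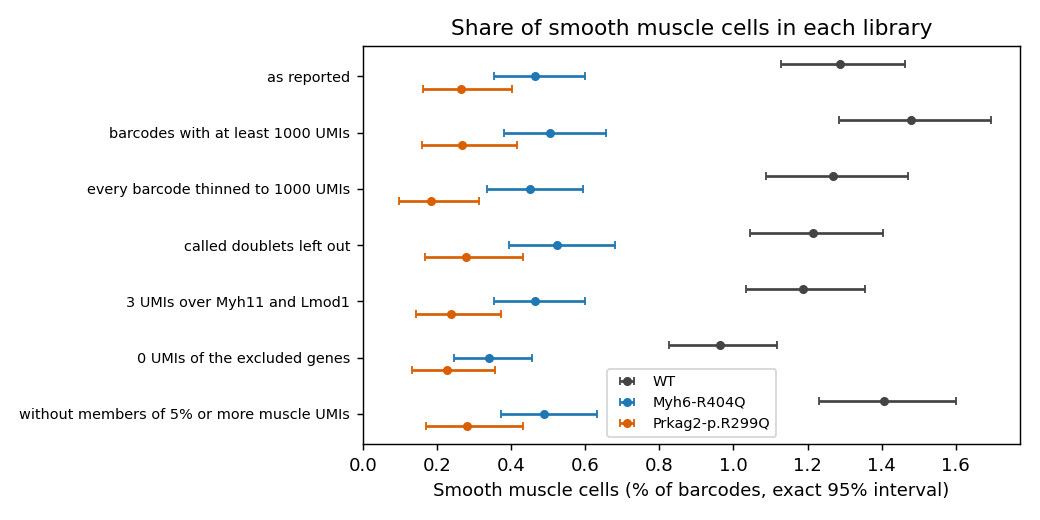
Share of smooth muscle cells in each library (x axis, percent of barcodes) as reported and under 6 other ways of choosing the barcodes (y axis); points are shares and bars exact binomial 95% intervals. In each of the 7 ways WT stands highest and Prkag2-p.R299Q lowest, and the bars of the mutants overlap in all but the thinned counts.

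The smooth muscle cells gave 593952, 164648 and 66353 UMIs, so a gene with 0 UMIs could still stand at up to 5.05, 18.2 or 45.2 CPM (3 UMIs). Their median was 1836.5, 2059 and 2472 UMIs per cell. Scrublet called 52 of the 232 WT cells doublets (22.4%), 4 of the 59 Myh6-R404Q cells and 2 of the 21 Prkag2-p.R299Q cells; all were kept, and a call described below that was lost without doublets is said to be. RNA of other cells was present throughout. The 18 cardiomyocyte markers summed to 26718, 31315 and 17060 CPM in the smooth muscle cells, against 83055 to 89059 CPM in cardiomyocyte-rich barcodes (at least 5% of UMIs from 6 muscle genes), and each was detected in every library. Cells that were themselves at or above that 5% numbered 5, 1 and 1, with 11.7%, 3.69% and 9.30% of the UMIs. The 16 pericyte markers summed to 2246, 2326 and 3813 CPM, the 12 macrophage markers to 1039, 729 and 1341 CPM, the 15 fibroblast markers to 1440, 1731 and 2095 CPM and the 14 endothelial markers to 1054, 972 and 1040 CPM. At 0 UMIs in Prkag2-p.R299Q were Kcnj8 of the pericyte list, Cd68 and Fcgr1 of the macrophage list, Dpt and Pi16 of the fibroblast list, and Pecam1, Tie1, Tek and Vwf of the endothelial list. The part of these RNAs in the results below was not tested, except where a value without the cells that hold them is given.

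Set against pericyte-like cells, the cells they most resemble, smooth muscle cells carried more of the contractile machinery and of a group of membrane proteins. A gene counted as different if it had at least 20 UMIs over both classes in each library, at least a 2-fold ratio and an interval excluding 1, in the same direction in all 3 libraries; 210 of 7241 genes did (2.90%), 125 higher (1.73%) and 85 lower (1.17%). Without doublets 266 genes differed, and 308 without the smooth muscle cells that held 2 or more UMIs over Kcnj8, Abcc9 and Rgs5. The rule picked the cells by smooth muscle genes, and the pericyte-like cells were picked by markers of their own. These counts therefore describe the cells and support nothing beyond that.

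Of 43 contractile and cytoskeletal genes measured, 14 were higher in smooth muscle cells and 0 lower, with a median log2 ratio of 0.81 against -0.14 over all genes measured. They included the light chain kinase Mylk, at 966, 1251 and 799 CPM in smooth muscle and 211, 205 and 254 CPM in pericyte-like cells. The actin crosslinker Flna stood at 1217, 1105 and 723 CPM against 113, 113 and 128 CPM. The integrin Itga8 (chr2:12106632-12301922, minus strand), a receptor for matrix on smooth muscle, stood at 559, 510 and 256 CPM against 39.5, 67.4 and 66.2 CPM. The others were Myl6, Tpm2, Actn1, Synpo2, Pdlim3, Csrp2, Ppp1r12a, Ppp1r14a, Sorbs2, Map1b and Cap2, so the group spans filaments, the myosin phosphatase and its inhibitor, and adhesion proteins.

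Membrane proteins outside the rule marked the cells as clearly. Kcnab1 (chr3:65109384-65378223, plus strand) stood at 2487, 3237 and 2728 CPM against 71.9, 72.1 and 59.7 CPM in pericyte-like cells, a ratio of 34.6 to 45.7. Olfr78 (chr7:102738511-102759471, minus strand), an olfactory receptor known to respond to short-chain fatty acids in vessels, stood at 170, 243 and 316 CPM and had a UMI in 64, 25 and 11 cells. In pericyte-like cells it stood at 1.41, 0 and 2.17 CPM, and in fibroblast-like cells at 0.933, 1.39 and 1.28 CPM. Entpd1, an enzyme that breaks down extracellular ATP, stood at 648, 674 and 482 CPM against 43.0, 24.4 and 22.8 CPM. Fat3, an atypical cadherin, stood at 195, 304 and 377 CPM against 5.64, 7.49 and 4.34 CPM.

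Among signalling genes, the muscarinic receptor Chrm3 was the only vasoactive receptor of 17 measured that was higher, at 311, 401 and 332 CPM against 35.2, 29.0 and 20.6 CPM; Agtr1a, the angiotensin receptor, and P2ry14 were lower. Rgs7bp, which anchors regulators of G proteins, stood at 295, 419 and 407 CPM against 23.97, 22.5 and 17.4 CPM. Among 39 genes of cyclic nucleotide and G protein signalling Rgs6 and Adcy5 were also higher, and Pde7b and Pde8b were lower. Dgkb, of the same list, was higher too, but it is a gene of the rule and so describes the choice. Prkg1, the cyclic GMP-dependent kinase, was abundant in both classes: 5847, 6784 and 6918 CPM in smooth muscle cells and 5545, 6105 and 6205 CPM in pericyte-like cells. Itpk1, an inositol phosphate kinase, stood at 253, 316 and 211 CPM against 18.3, 19.7 and 10.8 CPM.

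Of the matrix genes, Eln (elastin) and Ltbp1 were higher among 34 vascular matrix genes and Col5a3 and Fn1 lower. Eln stood at 261, 219 and 166 CPM against 57.1, 45.9 and 32.5 CPM. In the basement membrane list Lama5 was higher, at 125, 188 and 181 CPM against 30.3, 28.1 and 29.3 CPM, and Lama2 was lower. Notch3, the receptor of the mural lineage, was at a like level in both classes, 761, 856 and 1010 CPM against 816, 681 and 888 CPM, while its effector Hey2 was higher in smooth muscle. Pericyte markers were the reverse image: 0 of 16 were higher and 7 were lower, with Abcc9 at 295, 200 and 648 CPM against 2514, 2949 and 3056 CPM. The pericyte-like cells were chosen by pericyte markers, so this direction follows at least in part from the choice and is a description.

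A pair of further genes stood out by their lists. Mertk, a receptor for the uptake of dying cells that was listed as a macrophage marker, stood at 492, 571 and 437 CPM in smooth muscle cells, 59.9, 58.1 and 45.6 CPM in pericyte-like cells and 417, 458 and 457 CPM in macrophage-like cells. Macrophage RNA stood beside it: the 12 markers of that list summed to 276, 215 and 195 CPM in pericyte-like cells, below their sums in smooth muscle cells given above, and the 5 that were measured had a median log2 ratio of 1.43. Mertk was the only one of the 5 called; the part of macrophage RNA in its level was not tested. The transcript of Prkag2, the gene mutated in 1 of the models, was higher than in pericyte-like cells in all 3 libraries, at 251, 121 and 105 CPM against 50.8, 58.1 and 35.8 CPM, and was the only gene called among 22 measured genes of AMPK and glycogen metabolism.

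**Figure D2:**
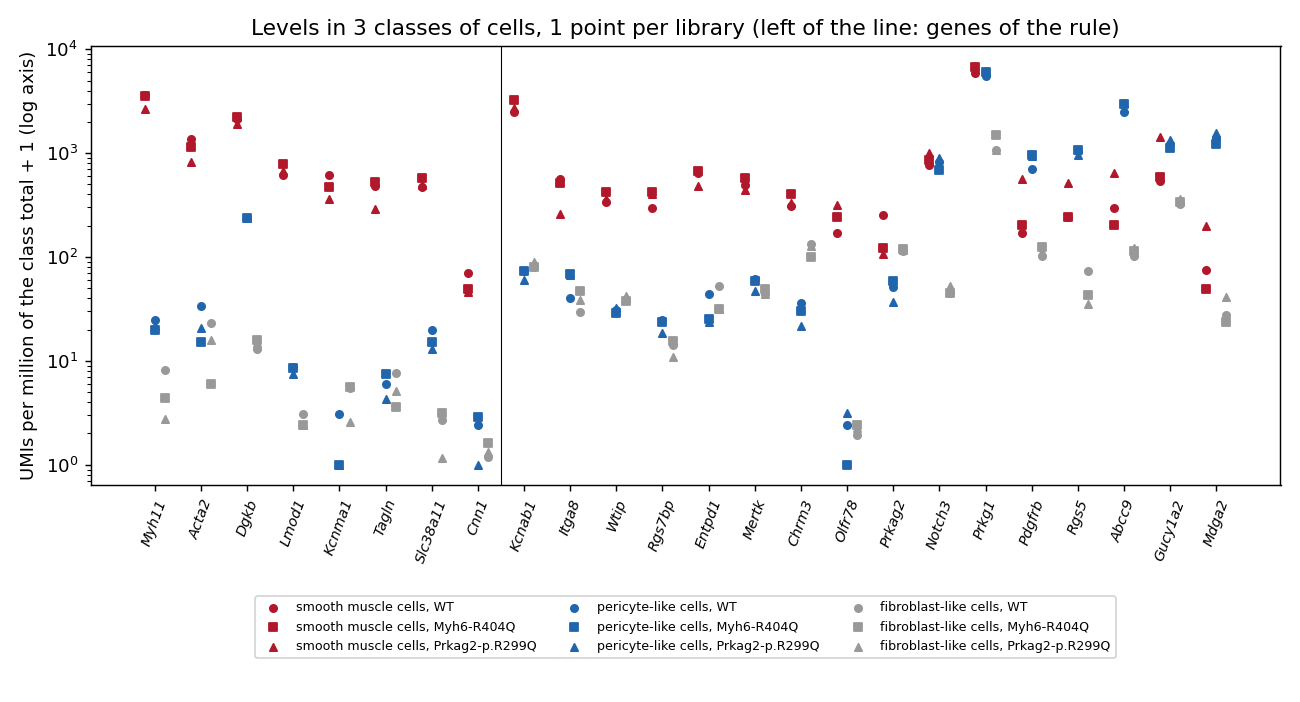
Level of 24 genes (x axis) in smooth muscle cells, pericyte-like cells and fibroblast-like cells, as CPM of the class plus 1 on a log axis, with 1 point per library and the genes of the rule left of the line. Kcnab1, Itga8, Entpd1 and Olfr78 stand higher in smooth muscle cells in each library, Notch3 and Prkg1 stand close in both mural classes, and Abcc9 and Mdga2 stand higher in pericyte-like cells.

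The smooth muscle cells were not uniform. The pericyte genes Kcnj8, Abcc9 and Rgs5 together gave 2 or more UMIs in 38 of 232 WT cells (16.4%), 13 of 59 Myh6-R404Q cells (22.03%) and 8 of 21 Prkag2-p.R299Q cells (38.1%), and 0 UMIs in 150, 37 and 7 cells. Of these, 13, 2 and 6 cells held 8 or more. Several contractile genes stood lower in cells with 2 or more such UMIs. Of those compared, Myh11, Lmod1, Acta2 and Tagln of the rule and Csrp1 and Flna outside it had ratios with intervals below 1 in each library, while that of Itga8 reached 1.53 in Prkag2-p.R299Q. Myh11 stood at 1355 CPM in them and 4951 CPM in cells with 0 in WT, at 2179 and 4425 CPM in Myh6-R404Q, and at 1227 and 3539 CPM in Prkag2-p.R299Q. Acta2 stood at 551 and 1848 CPM in WT, 429 and 1596 CPM in Myh6-R404Q, and 204 and 1361 CPM in Prkag2-p.R299Q. Flna, which the rule did not use, stood at 502 and 1641 CPM in WT, 532 and 1549 CPM in Myh6-R404Q, and 204 and 1198 CPM in Prkag2-p.R299Q.

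Not every smooth muscle gene followed. Notch3 stood at 702 and 775 CPM in WT, 789 and 786 CPM in Myh6-R404Q, and 1056 and 926 CPM in Prkag2-p.R299Q, and each ratio's interval included 1. Kcnab1 in Myh6-R404Q was also close, at 2556 and 2793 CPM (ratio 0.915, 0.741 to 1.13), while in WT it was 0.449 (0.390 to 0.516). Muscle RNA moved with the split, and Abcc9 itself stood at 317 CPM in WT cardiomyocyte-rich barcodes; the part of this RNA was not tested. Myh6 stood at 5868 and 3032 CPM in WT, 13536 and 4131 CPM in Myh6-R404Q, and 2794 and 708 CPM in Prkag2-p.R299Q. The cells with 2 or more UMIs were deeper in WT (median 2932.5 and 1754 UMIs) and Myh6-R404Q (3057 and 1587) but not in Prkag2-p.R299Q (2420 and 2472). Whether they were cells between the classes, doublets or cells with more free RNA cannot be told apart here.

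**Figure D3:**
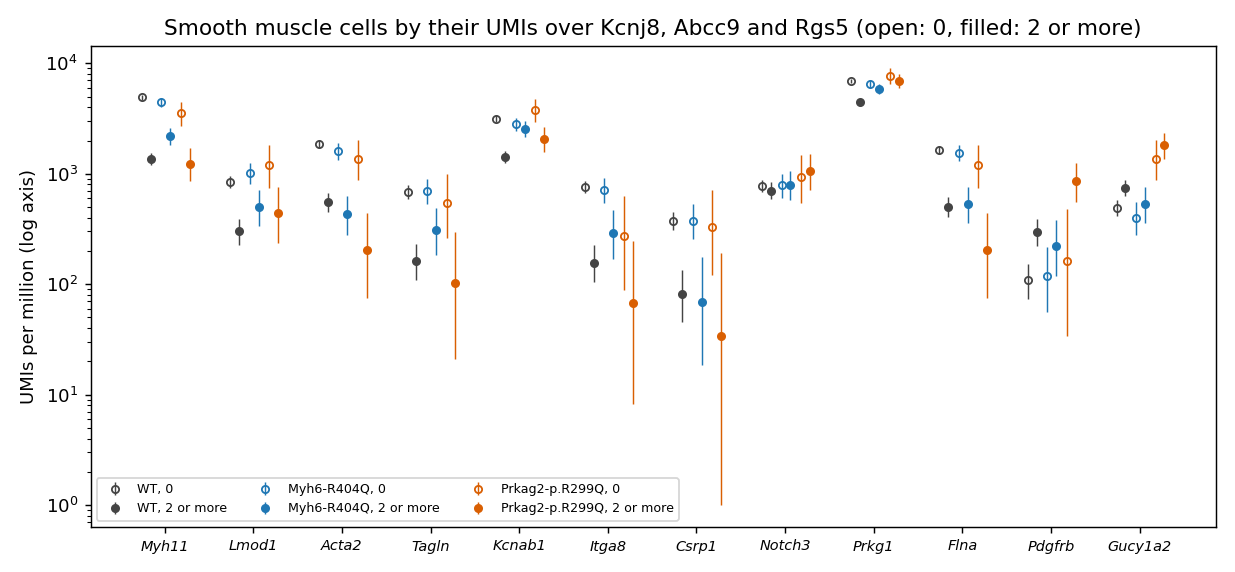
Level of 12 genes (x axis) in smooth muscle cells with 0 (open) and 2 or more (filled) UMIs over Kcnj8, Abcc9 and Rgs5, as CPM on a log axis with exact Poisson 95% intervals, by library. Myh11, Acta2 and Csrp1 stand lower in the filled points of each library, and Notch3 does not.

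Between genotypes, a gene was called if it had at least 20 UMIs over both libraries, at least a 2-fold ratio of CPM and an exact interval of the ratio that excluded 1. In Myh6-R404Q against WT 385 of 6256 genes were called (6.15%), 177 higher (2.83%) and 208 lower (3.32%). In Prkag2-p.R299Q against WT 464 of 5765 were called (8.05%), 258 higher (4.48%) and 206 lower (3.57%). In Prkag2-p.R299Q against Myh6-R404Q 254 of 2543 were called (9.99%), 122 higher (4.80%) and 132 lower (5.19%). The WT library serves both of the first comparisons, so a value that is unusual in WT moves both. Of the 8 genes of the rule, 0 were called in any of the 3 comparisons, but a rule that asks for their UMIs limits how low they can go.

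Transcript levels of the mutated genes do not check the genotypes, since the models carry point mutations. Prkag2 (chr5:24862744-25100642, minus strand) had 149 UMIs in 88 WT cells, 20 UMIs in 15 Myh6-R404Q cells and 7 UMIs in 6 Prkag2-p.R299Q cells. Its level of 251 CPM in WT was above the 121 and 105 CPM of the mutants, a ratio of 0.484 (0.287 to 0.775) for Myh6-R404Q and 0.421 (0.166 to 0.888) for Prkag2-p.R299Q. It was thus called lower in smooth muscle cells of both mutants, each against the same WT cells. In pericyte-like cells the ratios were 1.14 (0.801 to 1.63) and 0.705 (0.452 to 1.08), and in fibroblast-like cells 1.03 (0.921 to 1.14) and 1.02 (0.914 to 1.14); whether the ratios differ between classes was not tested. Without the cells of 2 or more pericyte UMIs the Myh6-R404Q call was lost, and after thinning the Prkag2-p.R299Q call was. Of 20 genes of AMPK and glycogen metabolism measured in Myh6-R404Q against WT 3 were called lower and 2 higher (Pdk4 and Txnip), and of 19 in Prkag2-p.R299Q against WT 3 lower and 0 higher. Beside Prkag2, the lower ones in both were the branching enzyme Gbe1, at 138, 66.8 and 45.2 CPM, and the phosphorylase kinase subunit Phka1, at 178, 79.0 and 45.2 CPM. Without the cells of 2 or more pericyte UMIs Gbe1 was called in neither comparison and Phka1 not in Prkag2-p.R299Q; Pdk4 was lost there and without doublets. Gbe1 and Phka1 each had 3 UMIs in Prkag2-p.R299Q, with ratios of 0.327 (0.0662 to 0.991) and 0.253 (0.0514 to 0.761). Myh6, a cardiomyocyte gene, stood at 4401, 7379 and 4084 CPM in smooth muscle cells and at 14476, 19030 and 17555 CPM in cardiomyocyte-rich barcodes.

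In Myh6-R404Q against WT the contractile apparatus was close to WT: 1 gene of 46 was called higher (Tln2) and 2 lower (the integrins Itga5 and Itga9), with a median log2 ratio of -0.07 against -0.02 over all genes. Neither integrin was called without doublets, and Tln2 was not called with its most abundant cell left out. Itga8 stood at 559 and 510 CPM (ratio 0.913, 0.710 to 1.16) and myocardin at 658 and 656 CPM (0.996, 0.798 to 1.24). Among calcium handling genes and channels 0 of 34 were called higher and 4 lower. Of the lower ones Cacna2d3, Kcnn2 and Clcn3 were called neither without doublets nor without the cells of 2 or more pericyte UMIs. The T-type calcium channel Cacna1h had 50 UMIs in 47 WT cells and 3 UMIs in 3 Myh6-R404Q cells, a ratio of 0.216 (0.0432 to 0.670) that was also called under each of the 10 alternatives. Among these alternatives, a pseudocount of 1 CPM could not change any call, here or below, since calls did not use the pseudocount.

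Matrix genes of the vessel wall went both ways in Myh6-R404Q, with 3 of 35 called higher and 3 lower. Mgp (chr6:136872435-136875823, minus strand), matrix Gla protein, which inhibits calcification of the arterial wall, had 52 UMIs in 46 WT cells and 48 UMIs in 34 Myh6-R404Q cells. Its level was 87.5 CPM in WT and 292 CPM in Myh6-R404Q, a ratio of 3.33 (2.20 to 5.03), and it was called under all 10 alternatives. The same ratio was 1.66 (1.38 to 2.01) in pericyte-like and 1.36 (1.27 to 1.45) in fibroblast-like cells. Postn (periostin) stood at 26.9 and 85.0 CPM and Col1a2 at 62.3 and 134 CPM; neither was called with its most abundant cell left out, and Postn was also lost without the cells of 2 or more pericyte UMIs. Thbs1 (thrombospondin 1) stood at 65.7 and 12.1 CPM and Sulf1, an enzyme that trims heparan sulfate, at 429 and 152 CPM; Thbs1 too was lost with its most abundant cell left out. Adamts1, a matrix protease, had 34 UMIs in WT and 0 in Myh6-R404Q. At 3 UMIs in Myh6-R404Q it would stand 3.14-fold below its WT level, a bound that leaves out counting error in WT.

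Nuclear-encoded genes of oxidative phosphorylation stood above WT in the Myh6-R404Q cells: 23 of 24 had a ratio above 1, 5 were called higher and 0 lower, with a median log2 ratio of 0.71. Atp5b, of the ATP synthase, stood at 300 and 620 CPM, a ratio of 2.07 (1.60 to 2.65). Ndufb8, of complex I, stood at 72.4 and 182 CPM, a ratio of 2.52 (1.52 to 4.11). Uqcrfs1 and Cox5b were also called. In cardiomyocyte-rich barcodes Atp5b stood at 313 and 755 CPM and Ndufb8 at 84.6 and 182 CPM in the same libraries. The same genes had medians of 0.10 in pericyte-like and -0.02 in fibroblast-like cells. The median in smooth muscle cells moved under several alternatives. It was 0.25 without cells of 2 or more pericyte UMIs and 0.45 without cells of 5% or more muscle UMIs. After thinning it was 0.36, and with each gene's most abundant cell left out 0.44. Without cells of 2 or more pericyte UMIs 0 of the 5 genes were called. The cause of these shifts was not tested. Atp5b and Cox5b were also not called without doublets. Beside these genes, 16 of 18 cardiomyocyte markers were above WT, with Myl2 at 978 and 1998 CPM and Myom2 at 90.9 and 322 CPM called higher. Myl2 was called neither without doublets nor without the cells of 2 or more pericyte UMIs, where the list's median was -0.05 in place of 0.28.

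Further calls in Myh6-R404Q touched receptors, stress and metabolism. The prostanoid receptor Ptger3 stood at 37.0 and 97.2 CPM, a ratio of 2.62 (1.29 to 5.23), with its 16 UMIs in 7 cells, and was not called with its most abundant cell left out. The chaperone Cryab stood at 153 and 370 CPM and was higher, though not without the cells of 2 or more pericyte UMIs, while Hsph1 (70.7 and 12.1 CPM) and Dnaja1 (200 and 79.0 CPM) were lower. Hsph1 and Dnaja1 were lower in other cells of this library too, with ratios of 0.264 and 0.659 in pericyte-like cells and 0.334 and 0.482 in fibroblast-like cells. Txnip, which restrains glucose uptake, stood at 87.5 and 194 CPM. The macrophage genes F13a1 (300 and 30.4 CPM) and Mrc1 (111 and 18.2 CPM) were lower, the latter not without doublets. In Prkag2-p.R299Q they stood at 392 and 226 CPM, with all 26 UMIs of F13a1 in 1 cell. Rbpj, the DNA-binding partner of Notch that was most abundant in macrophage-like cells (6310 CPM in WT), stood at 418 and 103 CPM and was not called without doublets.

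In Prkag2-p.R299Q against WT the contractile genes lay lower as a group. Of 46 measured, 39 had a ratio below 1, 8 were called lower and 0 higher, with a median log2 ratio of -0.33 against -0.05 over all genes. In pericyte-like cells the median of the same list was -0.01 and in fibroblast-like cells -0.04. Itga8 stood at 559 CPM in WT, 510 CPM in Myh6-R404Q and 256 CPM in Prkag2-p.R299Q, the last from 17 UMIs in 10 cells, with a ratio of 0.458 to WT (0.264 to 0.745). Csrp2, a LIM protein of smooth muscle, stood at 310, 267 and 151 CPM and the Z-disc protein Pdlim3 at 483, 553 and 226 CPM. Myocardin (chr11:65176561-65269989, minus strand) stood at 658, 656 and 256 CPM, a ratio of 0.389 (0.224 to 0.631) from 17 UMIs in 5 cells. Without the cells of 2 or more pericyte UMIs the list's median was -0.37, but Itga8, Csrp2, Pdlim3 and myocardin were no longer called among the 13 cells left. Pdlim5, Palld, Nexn and Ldb3, also called lower, are abundant in cardiomyocyte-rich barcodes (1344 to 3571 CPM in WT), as is myocardin (1262 CPM), and 7 of 18 cardiomyocyte markers were called lower and 0 higher in these cells.

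Pericyte genes went the other way. Of 12 pericyte markers measured, 5 were called higher and 0 lower, with a median log2 ratio of 0.79. Pdgfrb, the receptor for platelet-derived growth factor, stood at 170, 200 and 558 CPM, a ratio of 3.28 (2.19 to 4.82), with a UMI in 13 of the 21 cells. Rgs5, which damps G protein signals, stood at 244, 243 and 512 CPM, and Abcc9 at 295, 200 and 648 CPM. Neither was called without doublets or with its most abundant cell left out. Their UMIs define the cells of 2 or more pericyte UMIs, so that leaving these cells out lowers both by construction. Colec11, with 10 UMIs in Prkag2-p.R299Q, was called under 3 of 10 alternatives, and not without doublets. Pdgfrb, whose UMIs do not define those cells, was called under all 10. Its level was still higher in those cells. In Prkag2-p.R299Q it had 25 UMIs in the 8 cells of 2 or more pericyte UMIs and 3 UMIs in the 7 cells with 0 (852 and 163 CPM). In WT the same split gave 297 and 108 CPM. Opcml, Ntm and Sorcs1, neuronal adhesion or sorting proteins that are abundant in pericyte-like cells (149 to 406 CPM in WT), had ratios of 6.27 to 11.1 and were also not called without those cells.

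Signalling genes of the Prkag2-p.R299Q cells included higher values on both the constrictor and the relaxing side. The endothelin receptor Ednra stood at 210, 316 and 437 CPM, a ratio of 2.08 (1.34 to 3.13) in Prkag2-p.R299Q that was not called with its most abundant cell left out. Its ratio was 1.10 (0.9503 to 1.28) in pericyte-like cells. Gucy1a2, a subunit of the nitric oxide receptor, stood at 544, 583 and 1432 CPM, a ratio of 2.63 (2.07 to 3.32) with a UMI in all 21 cells, and was called under each of the 10 alternatives. P2rx4, an ATP-gated channel, stood at 40.4, 36.4 and 151 CPM and was called neither without doublets nor without the cells of 2 or more pericyte UMIs. The muscarinic receptor Chrm2, at 1436 CPM in WT cardiomyocyte-rich barcodes, stood at 315, 79.0 and 45.2 CPM and was called lower in both mutants.

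Vasoactive receptors with at least 10 UMIs over the 3 libraries were 24 in number, but not all could be measured against WT. In Myh6-R404Q 17 were measured, with 1 called higher (Ptger3) and 1 lower (Chrm2). In Prkag2-p.R299Q 15 were measured, with 2 called higher (Ednra and P2rx4) and 1 lower (Chrm2). Over all genes measured, 6.15% and 8.05% were called in these comparisons. With so few receptors measured, whether their share of calls differs from these was not tested. The mineralocorticoid receptor Nr3c2 was the most abundant, at 475, 613 and 588 CPM. Calcrl, which with Ramp1 forms the receptor for calcitonin gene-related peptide, stood at 113, 97.2 and 166 CPM, and Ramp1 at 37.0, 60.7 and 15.1 CPM. The adrenergic receptor Adra1a, through which noradrenaline constricts vessels, stood at 32.0, 60.7 and 45.2 CPM. S1pr3, a receptor for sphingosine phosphate, stood at 67.3, 48.6 and 30.1 CPM, and Agtr1a at 35.4, 18.2 and 15.1 CPM. Besides Chrm3, whose levels are given above, the rest (Ednrb, Adra1b, Adrb1, Htr2a, Htr2b, Ptger4, P2ry14, Npr1, Npr2, Npr3, Npy1r, S1pr1 and Gpr20) held at most 66.8 CPM in any library. Several had too few UMIs to be measured against WT, and in Prkag2-p.R299Q the receptors other than Nr3c2, Chrm3, Ednra, Calcrl and P2rx4 each had 4 UMIs or fewer.

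Itih4 (chr14:30886476-30902353, plus strand), an inter-alpha-trypsin inhibitor chain, had 54 UMIs in 35 WT cells, 17 UMIs in 8 Myh6-R404Q cells and 0 in Prkag2-p.R299Q. At 3 UMIs in Prkag2-p.R299Q it would stand 2.01-fold below its WT level, a bound that leaves out counting error in WT. In no other WT class did it pass 1.46 CPM, beside 90.9 CPM in smooth muscle. Adamts14 (chr10:61197112-61273438, minus strand), a procollagen-processing protease, had 54, 6 and 0 UMIs, so the bound of 2.01-fold given for Itih4 holds for it too. Its ratio was 0.401 (0.141 to 0.931) in Myh6-R404Q, a call that was lost without the cells of 2 or more pericyte UMIs. The growth factor Tgfb3 stood at 231, 121 and 60.3 CPM and was called in Prkag2-p.R299Q, with a ratio of 0.261 (0.0702 to 0.685) that was also lost without those cells.

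Basement membrane and matrix genes went both ways in Prkag2-p.R299Q. Col18a1, whose fragment is endostatin, stood at 221, 243 and 75.4 CPM, the basement membrane collagen Col4a5 at 317, 340 and 75.4 CPM and perlecan (Hspg2) at 221, 219 and 75.4 CPM, each from 5 UMIs. Col8a1, a short-chain collagen of the vessel wall, stood at 89.2, 121 and 256 CPM, Timp3, an inhibitor of matrix proteases, at 241, 261 and 482 CPM, and Postn at 26.9, 85.0 and 151 CPM. Timp3 and Postn were not called in Prkag2-p.R299Q without doublets, Col18a1 not without the cells of 2 or more pericyte UMIs and Col8a1 not with its most abundant cell left out. In all, 6 of 36 vascular matrix genes were called higher and 3 lower, and 1 of 17 basement membrane genes higher and 2 lower. Adamts12, a further matrix protease, stood at 90.9, 158 and 497 CPM, a ratio of 5.47 (3.44 to 8.59) from 33 UMIs in 6 cells. Its level in WT pericyte-like cells was 216 CPM, with a ratio there of 1.12 (0.937 to 1.33).

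**Figure D4:**
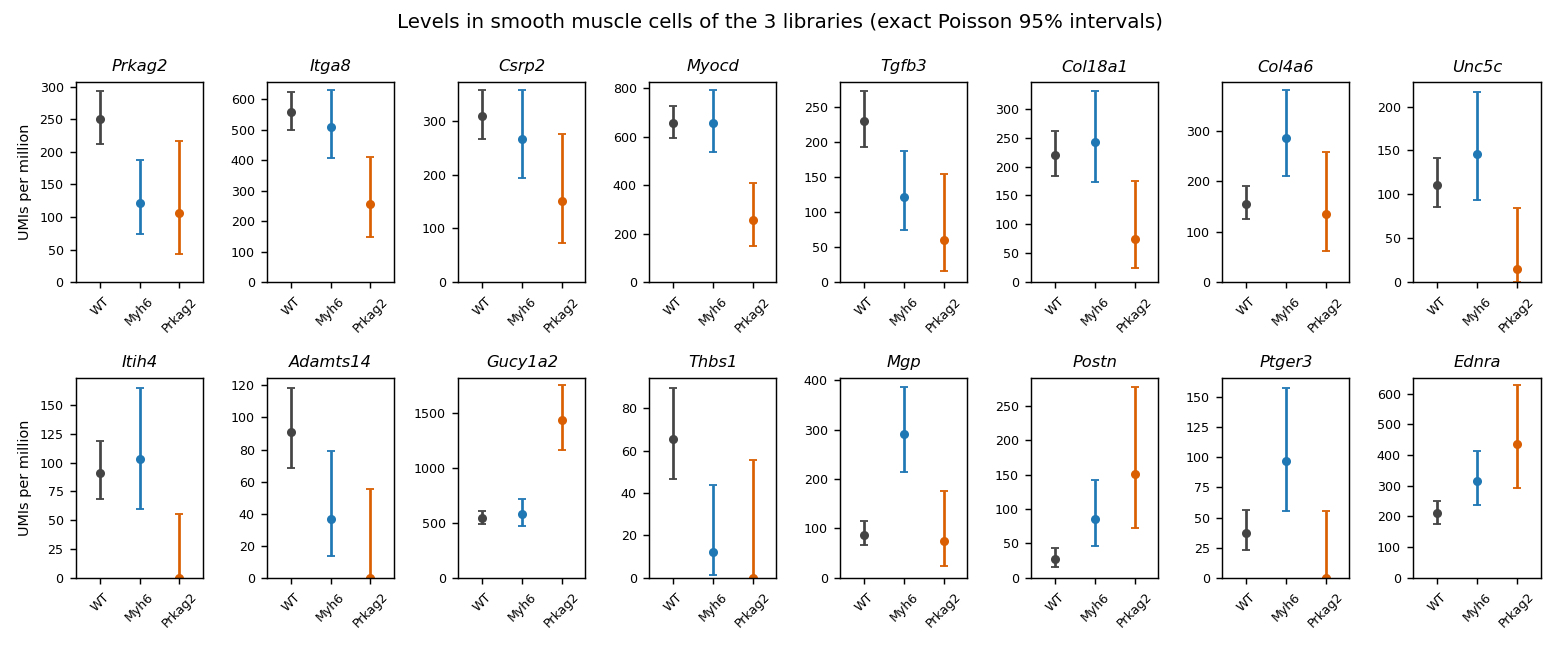
Level of 16 genes in smooth muscle cells of the WT, Myh6-R404Q (Myh6) and Prkag2-p.R299Q (Prkag2) libraries, in CPM with exact Poisson 95% intervals and axes from 0. Prkag2 and Tgfb3 stand highest in WT, Mgp in Myh6-R404Q and Ednra in Prkag2-p.R299Q, and the Prkag2-p.R299Q intervals are the widest relative to their level.

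The mutants were also set against each other, without the WT library. Of 70 named calls 13 were kept without the cells of 2 or more pericyte UMIs, where 33 of the genes had too few UMIs to be measured, and 51 were kept without doublets. In Prkag2-p.R299Q against Myh6-R404Q 3 of 42 contractile genes were called lower (Tpm2, Pdlim3 and Nexn) and 1 higher (Itga9), and 3 of 9 pericyte markers were called higher (Abcc9, Rgs5 and Pdgfrb) and 0 lower. Of 13 basement membrane genes 4 were lower (Col4a5, Col4a6, Hspg2 and Dag1) and 0 higher. Mgp, at 292 and 75.4 CPM, was lower, and so were 6 of 18 cardiomyocyte markers. Of 21 oxidative phosphorylation genes 17 had a ratio below 1, with a median log2 ratio of -0.47. Cox5a, Atp5a1 and Atp5g1 were called lower, but not without the cells of 2 or more pericyte UMIs. There the log2 ratio of Atp5a1 was 0.0084. Gucy1a2, at 583 and 1432 CPM, was higher. Of the genes named here, Pdlim3, Col4a5, Hspg2 and Mgp were also called without the cells of 2 or more pericyte UMIs, and Tpm2, Rgs5, Col4a6, Dag1 and Atp5a1 were lost without doublets.

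**Figure D5:**
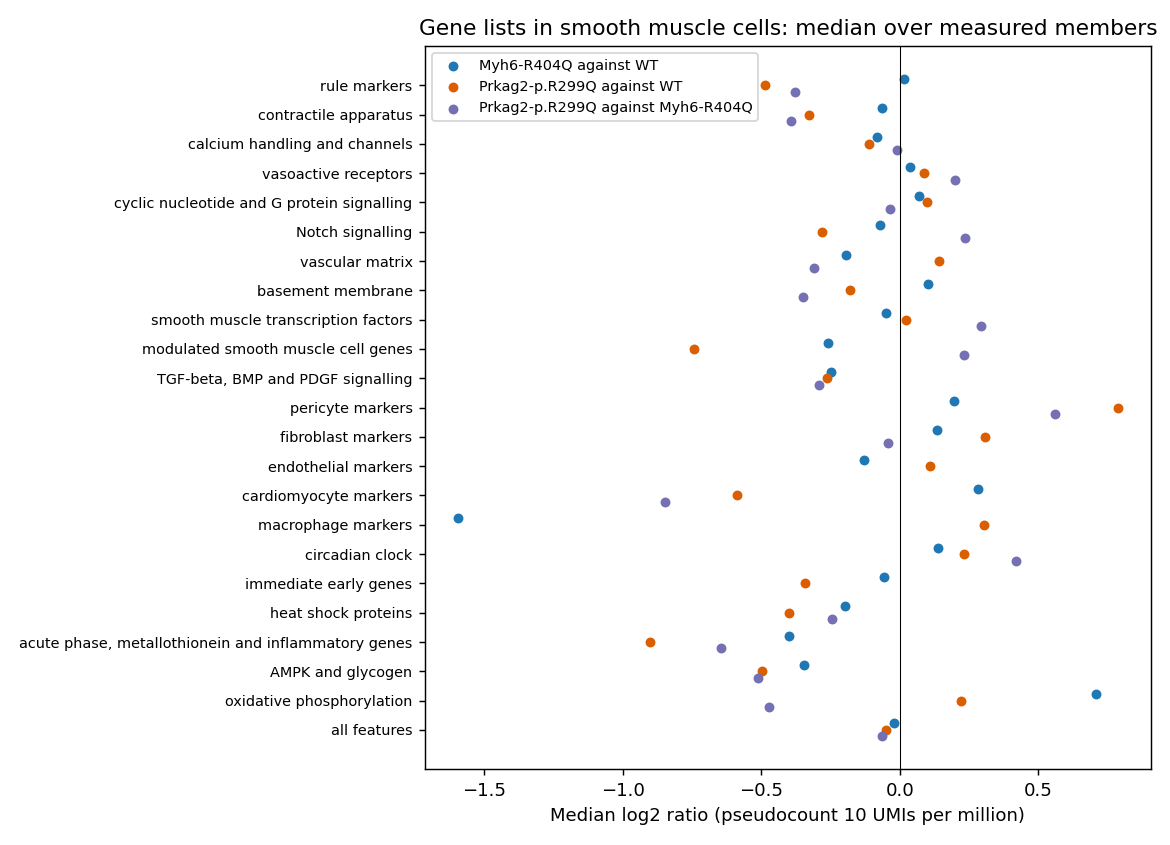
Median log2 ratio (x axis, pseudocount 10 CPM) over the measured members of each gene list (y axis) in smooth muscle cells, for the 3 comparisons, with all genes measured at the bottom. Pericyte markers stand at 0.79 and contractile genes at -0.33 in Prkag2-p.R299Q against WT, oxidative phosphorylation at 0.71 in Myh6-R404Q against WT, and the rule's own genes are shown as a description.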

How the data were processed

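Male C57/B6J hearts were dissociated with collagenase and profiled with a 10x Genomics 3-prime kit, per the labels' protocols. The authors deposited UMI count matrices of 32285 genes and called barcodes, made with Cell Ranger 7.0.1 on mm10, per the submitters' processing notes; whether intronic reads were counted is not given in the sources used here. An aggregate of all 3 libraries was deposited under Myh6-R404Q: its suffix 1 barcodes equal the Prkag2-p.R299Q matrix and suffix 2 the WT matrix, with 0 entries that differ, and its 12662 suffix 3 barcodes were used. Libraries shared 28 to 51 barcode sequences pairwise and 0 in all 3.

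Counts were summed over the smooth muscle cells of a library, with no filter on barcodes, and scaled to CPM; log2 ratios used a pseudocount of 10 CPM. Intervals of ratios are exact conditional binomial ones, those of shares exact binomial and those of share ratios log-normal. Free RNA was not removed. Doublets were called with Scrublet in scanpy 1.11.5 at 0.8% per 1000 barcodes (17.8%, 16.9% and 14.0% of barcodes) and left out as an alternative. Comparison classes needed 3 of 8 markers, 2 UMIs over their core markers and at most 1 UMI over other classes' genes. Members and gene lists (24) were chosen with earlier results of these data known. Named were the rule's genes, the 4 most abundant and all called members of each list, and receptors with 10 or more UMIs. Also named were the 10 highest and 10 lowest called genes per comparison (15 and 10 against pericyte-like cells). Between genotypes, these highest and lowest genes needed a UMI in at least 5 cells of the higher library. Their level there also had to reach 1/5 of the highest level in any class. The counts of calls and the called list members did not need this. Mitochondrial, ribosomal, hemoglobin, immunoglobulin, predicted and sex-linked marker genes were left out. The calling was tested on simulated counts, which held counting error only. Of unchanged genes 1.85%, 2.01% and 2.28% were called (Myh6-R404Q against WT, Prkag2-p.R299Q against WT, Prkag2-p.R299Q against Myh6-R404Q). A simulated 2-fold rise was called in 62%, 50% and 54% of 50 genes, and a 2-fold fall in 36%, 12% and 38%. Coordinates are from GENCODE on mm10. A few genes that the rule would name are not reported here.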

Additional observations from a re-analysis of the deposited data

How the results depend on the processing

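No paired analysis was possible because each genotype had 1 library. The ratios of shares kept their direction and stayed within their intervals under all alternatives. Of the shares, WT stood outside its interval with 0 UMIs of the excluded genes (0.965%) and with barcodes of at least 1000 UMIs (1.48%), and Myh6-R404Q with 0 UMIs of the excluded genes (0.340%). The number of called genes moved most with depth: thinning cells to 1000 UMIs left 153, 125 and 54 calls (Myh6-R404Q against WT, Prkag2-p.R299Q against WT, Prkag2-p.R299Q against Myh6-R404Q), and asking for 50 UMIs left 199, 297 and 93, since fewer genes were measured. Without cells of 2 or more pericyte UMIs, 254 calls were left in Prkag2-p.R299Q against WT and 110 against Myh6-R404Q. Leaving out the cell with most UMIs of each gene moved the share of higher calls from 46.0%, 55.6% and 48.0% to 16.4%, 11.9% and 17.2%, as it takes 1 of 21 or 59 cells on the mutant side and 1 of 232 in WT. With 50 UMIs that share was 39.1% in Prkag2-p.R299Q against WT and 29.0% against Myh6-R404Q, and without pericyte-UMI cells it was 36.4% in the latter. Of 69 named calls in Myh6-R404Q against WT 31 were kept without pericyte-UMI cells and 44 without doublets, of 102 in Prkag2-p.R299Q against WT 36 and 77, and of 70 in Prkag2-p.R299Q against Myh6-R404Q 13 and 51. Directions turned in a few called values, given as log2 ratios. In Prkag2-p.R299Q against WT these were, without pericyte-UMI cells, Abcc9 (-0.049, by construction, since its UMIs define those cells), Prrx1 (-0.40) and Tgfb2 (-0.043); without doublets, Tgfb2 (-0.058); with the most abundant cell left out, Pde3b (-2.18), Mrc1 (-2.03) and Mdga2 (-2.79); and after thinning, Mhrt (0.19). In Prkag2-p.R299Q against Myh6-R404Q, without pericyte-UMI cells, they were Prrx1 (-0.058), Atp5a1 (0.0084) and the cardiomyocyte list's median (0.033). In Myh6-R404Q against WT they were Tln2 (-0.20, after thinning) and Negr1 (-1.45, without pericyte-UMI cells). Prrx1 was not called without doublets in either comparison of Prkag2-p.R299Q. Medians of several lists turned sign too. In Myh6-R404Q against WT cardiomyocyte markers went from 0.28 to -0.05 without pericyte-UMI cells. In Prkag2-p.R299Q against WT oxidative phosphorylation went from 0.22 to -0.69 without muscle-rich cells, -0.45 after thinning and -0.74 with the most abundant cell left out, where macrophage markers went from 0.30 to -2.03. The cause was not tested. The 21 cells of Prkag2-p.R299Q limit that side: 0 UMIs allow up to 45.2 CPM. The alternative without cells of 5% or more muscle UMIs was added after seeing the data.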

Other observations

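Clock and acute response genes were measured in the smooth muscle cells but are thin in the counts. In Myh6-R404Q against WT 1 of 12 clock genes was called lower and 0 higher: Dbp, an output gene of the clock, had 53 UMIs in 43 WT cells and 6 UMIs in 4 Myh6-R404Q cells (89.2 and 36.4 CPM, ratio 0.408, 0.143 to 0.949). In Prkag2-p.R299Q against WT Dbp was lower, with 1 UMI (15.1 CPM, ratio 0.169, 0.00420 to 0.983, called under 5 of 10 alternatives), and Per1, a repressor of the clock, was higher at 65.7 and 166 CPM, the latter from 11 UMIs in 8 cells. In fibroblast-like cells of the same libraries the Dbp ratios were 0.859 (0.723 to 1.02) and 1.65 (1.42 to 1.92). In Prkag2-p.R299Q against WT neither Per1 nor Dbp was called without doublets. Of 10 immediate early genes measured in Myh6-R404Q against WT, 1 was called lower (Fosl2, 79.1 and 24.3 CPM) and 0 higher, and of 9 in Prkag2-p.R299Q against WT 0 were called in either direction.

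Among transcription factors of the lineage, Tbx2, a repressor of the T-box family, stood at 106, 134 and 286 CPM in WT, Myh6-R404Q and Prkag2-p.R299Q, with a UMI in 12 of the 21 Prkag2-p.R299Q cells and a ratio of 2.70 to WT (1.53 to 4.57), and it was not called without the cells of 2 or more pericyte UMIs. Tead1, a partner of the Hippo pathway's coactivators, stood at 399, 182 and 256 CPM and was called lower in Myh6-R404Q (ratio 0.457, 0.301 to 0.669), though not without the cells of 2 or more pericyte UMIs. Unc5c, a netrin receptor with 31.4 CPM at most in other WT classes, had 66, 24 and 1 UMIs, and the ratio of Prkag2-p.R299Q to WT was 0.136 (0.00338 to 0.782). This call was lost without the cells of 2 or more pericyte UMIs and after thinning.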
